A study of Homo sapiens with 12 samples.

Results

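The genes described here are 7 receptor tyrosine kinase genes, EGFR, ERBB2, PDGFRA, PDGFRB, MET, AXL and FGFR1, and 3 genes for platelet-derived growth factor (PDGF) chains, PDGFA, PDGFB and PDGFC. They were chosen by name, with earlier results of these data known. Each of the 10 symbols matched 1 of the 60107 Ensembl gene identifiers in the count table. The data are 3′ RNA-sequencing counts of 12 libraries from U251 cells, an established human glioblastoma (GBM) line, under the labels U251P and U251T, with 3 libraries from vehicle (DMSO) and 3 from carmofur in each. Carmofur is a small molecule that inhibits acid ceramidase, and the question behind the comparison was which genes respond to that inhibition. All 4 groups were starved of serum for 16 h and then kept for 24 h in full medium with vehicle or drug. By the labels that medium held 10% FBS, the supplement Gem21 and 20 ng/ml each of EGF and basic FGF, so that ligands of EGFR and of the FGF receptors were supplied to all 4 groups. The study's text instead names FBS alone for the cultures that were sequenced, and it places carmofur in the starvation period as well. What the letters P and T stand for is not explained by the labels, and no label says whether replicates were separate cultures. The study's text calls the replicates of its experiments biological in general, without a statement on these libraries, so p-values measure the spread between them, which may be technical.

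Receptor tyrosine kinases span the cell membrane, bind a growth factor outside the cell and pass the signal on through RAS and ERK and through PI3-kinase and AKT. In glioblastoma, EGFR is the receptor gene most often amplified, PDGFRA amplification marks another set of tumors, and MET and AXL are studied as receptors of motile and drug-tolerant cells. PDGF chains pair into dimers that bind the PDGF receptors, and glioma cells that make both ligand and receptor can stimulate themselves.

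By Ensembl identifier, the genes lie at the following positions of GENCODE release 29 on GRCh38. EGFR (ENSG00000146648) spans chromosome 7 from 55019021 to 55211628 on the plus strand, PDGFA (ENSG00000197461) lies on the same chromosome from 497258 to 520296 on the minus strand, and MET (ENSG00000105976) lies there from 116672390 to 116798386 on the plus strand. PDGFRA (ENSG00000134853) spans chromosome 4 from 54229097 to 54298247 on the plus strand, and PDGFC (ENSG00000145431) spans 156760454 to 156971394 of that chromosome on the minus strand. ERBB2 (ENSG00000141736) is on chromosome 17 from 39687914 to 39730426 (plus), PDGFRB (ENSG00000113721) on chromosome 5 from 150113837 to 150155872 (minus), PDGFB (ENSG00000100311) on chromosome 22 from 39223359 to 39244751 (minus), AXL (ENSG00000167601) on chromosome 19 from 41219203 to 41261766 (plus) and FGFR1 (ENSG00000077782) on chromosome 8 from 38400215 to 38468834 (minus). All 10 are protein-coding genes. ERBB2 overlaps MIEN1 and PGAP3 on the opposite strand, which held up to 190 and 22 counts in a library, and the sources used here do not say if reads were counted by strand.

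The libraries labeled U251T stood apart from the U251P libraries before any receptor gene was considered. They held 383633 to 2817379 counts against 3295045 to 6350873 in U251P. Mitochondrial genome genes took 0.354% to 0.881% of their counts against 19.5% to 26.2% in U251P, and pseudogenes took 10.8% to 12.4% against 0.272% to 0.307%. B2M, the light chain of MHC class I that nearly every human cell carries, had 1 to 7 counts per U251T library and 5655 to 12332 in U251P. Of the glioma markers, NES and SOX2 had at most 2 and 1 counts in a U251T library, whereas the astrocyte filament gene GFAP had 8 to 154 counts there and at most 1 in U251P. The 10 glioma markers summed to 7817 to 14178 counts per 1000000 counts of the library (CPM) in U251T, with 4 of 10 at 0 in every vehicle library, and to 4070 to 5085 in U251P, with 2 of 10 at 0. VIM made up most of the U251T sum, at 7046 to 13534 CPM, and was at 2516 to 3252 CPM in U251P. CD44 was at 554 to 805 CPM in U251T and 917 to 1104 CPM in U251P. The 14 markers of other cell types summed to 1327 to 1999 CPM in U251T, most of it from the collagen gene COL1A1, and to 9.48 to 16.0 CPM in U251P. Of the fibroblast markers, DCN had 10 to 35 counts per U251T library and 0 to 3 in U251P, and LUM was at 0 in all 12 libraries. The macrophage marker CD68 was at 8.52 to 18.2 CPM in U251T and 0.787 to 2.52 CPM in U251P. Of the other leukocyte markers, PTPRC had 0 to 7 counts per U251T library and 0 or 1 in U251P. AIF1 was at 0 in all 12 libraries. The 14 constitutive genes summed to 3256 to 3720 CPM in U251T and 9896 to 11701 in U251P. Not all of them were lower in U251T, since LDHA was at 371 to 596 CPM there and at only 4.70 to 7.89 CPM in U251P. B2M, NES, SOX2 and COL1A1 thus went against the shared label U251, while VIM and CD44 were present under both labels. The cause was not tested, and values for the libraries labeled U251T are given under that label only.

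In U251P vehicle cultures, MET, the receptor for hepatocyte growth factor, and AXL, the receptor for GAS6, were the most abundant of the 10 mRNAs. Because 3′ reads are taken from near the end of each transcript, CPM were not divided by transcript length. MET stood at 156, 178 and 149 CPM in vehicle replicates 1, 2 and 3 (161 ± 15.3, SD, n = 3), and AXL at 156, 168 and 142 CPM (155 ± 12.9, SD, n = 3). In a bulk culture, fewer cells with a transcript and less of it per cell cannot be told apart. The ranges of MET and AXL overlapped, with MET the higher in 3 of 3 libraries, and both genes lay above every other member in each vehicle library. PDGFA, the A chain of PDGF, followed at 85.1, 114 and 71.2 CPM, and EGFR at 71.7, 73.4 and 64.6 CPM (69.9 ± 4.68, SD, n = 3).

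PDGFC, a PDGF chain that is released as a latent protein, was at 54.7, 68.0 and 67.6 CPM in U251P vehicle, and PDGFRA, the receptor for the A, B and C chains, at 58.6, 53.4 and 51.9 CPM. From PDGFA to PDGFRA each gene's range overlapped that of the next in order. Within libraries PDGFA was above EGFR in 3 of 3, and EGFR was above PDGFC and PDGFC above PDGFRA in 2 of 3 each. FGFR1, a receptor for basic FGF, was lower, at 36.7, 43.1 and 35.0 CPM. PDGFB was at 10.1, 22.5 and 8.93 CPM and ERBB2, the ERBB receptor without a ligand of its own, at 8.89, 8.50 and 11.0 CPM, and these ranges overlapped. PDGFRB had 1, 0 and 2 counts, where 0 counts allow up to 0.910 CPM in the shallowest U251P library. U251P thus held mRNA of PDGFRA, of the A and C ligand chains and, at a lower level, of the B chain, with PDGFRB at the counting floor.

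**Figure D1:**
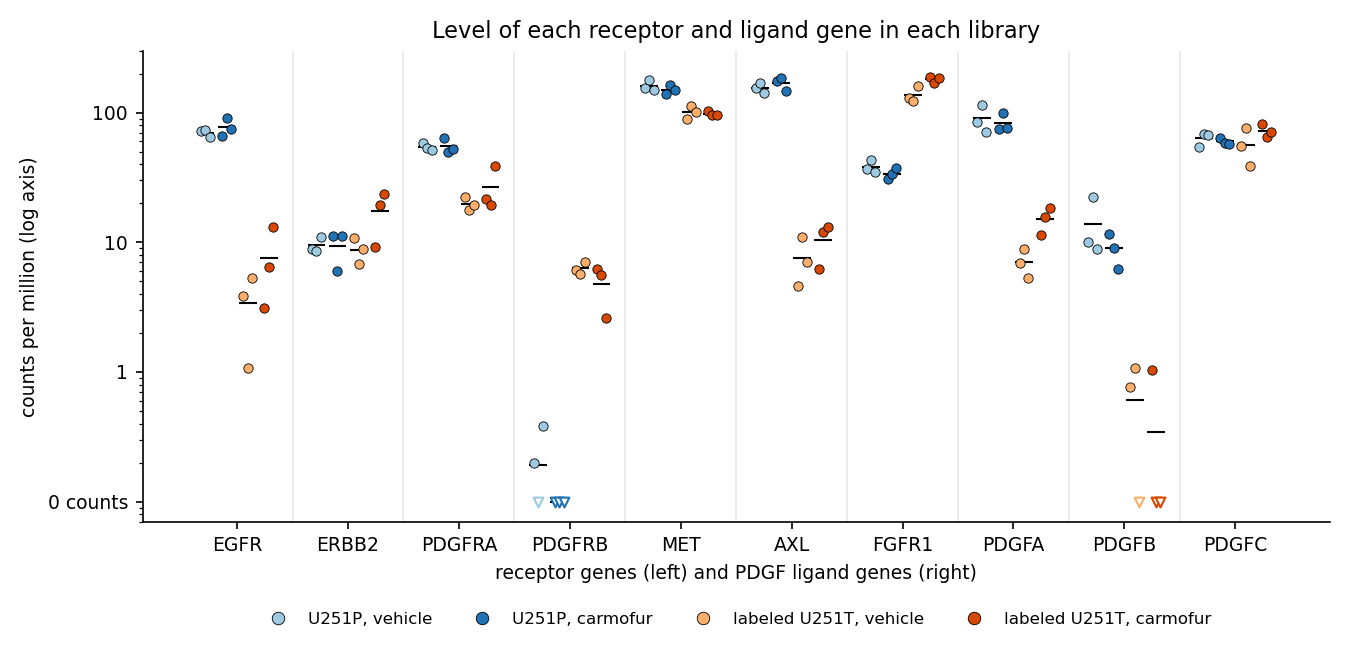
CPM (log axis) of the 7 receptor genes and 3 ligand genes in each of the 12 libraries, with a point per library, a bar at the mean of each group and open triangles for 0 counts. In U251P the vehicle and carmofur points of each gene lie together, with MET and AXL highest, whereas in the libraries labeled U251T FGFR1 is highest and EGFR, AXL, PDGFA and PDGFB are far lower than in U251P.

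Carmofur left the receptor and ligand genes of U251P within the spread of their replicates. EGFR was at 66.6, 90.5 and 75.0 CPM with carmofur (77.4 ± 12.1, SD, n = 3), a range that overlapped the vehicle range, and its log2 fold change was 0.18 (standard error, SE, 0.133, 95% interval -0.10 to 0.46). The EGFR estimate was 0.03 without carmofur replicate 2, the library with the highest EGFR level, and 0.30 without carmofur replicate 1. AXL was at 177, 183 and 147 CPM, with a log2 fold change of 0.16 (SE 0.109, interval -0.08 to 0.39), and MET at 139, 162 and 149.6 CPM, with -0.07 (SE 0.109, interval -0.30 to 0.17). AXL had the highest mean of the 10 genes with carmofur and MET with vehicle, but the ranges of these genes overlapped in both groups. The order of the others with carmofur was PDGFA, EGFR, PDGFC, PDGFRA, FGFR1, ERBB2, PDGFB and PDGFRB, in which PDGFA overlapped EGFR, PDGFC overlapped PDGFRA and ERBB2 overlapped PDGFB.

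The largest estimate in U251P was that of PDGFB, which was at 11.7, 9.07 and 6.27 CPM with carmofur and had a log2 fold change of -0.51 (SE 0.316, interval -1.18 to 0.16). It rested on vehicle replicate 2, with 74 counts in the shallowest U251P library, and without that library it was -0.04. FGFR1 was at 30.9, 33.6 and 37.2 CPM with carmofur, a log2 fold change of -0.14 (interval -0.45 to 0.16). The log2 fold changes of PDGFA, PDGFC, PDGFRA and ERBB2 were -0.06, -0.05, 0.04 and -0.01, and their intervals reached no further than -0.57 and 0.55. PDGFRB had 0 counts in each carmofur library and 3 in total with vehicle, too few for a fold change.

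By the quasi-likelihood test of edgeR, adjusted by Benjamini-Hochberg, 0 of the 9 members tested in U251P had an adjusted p-value under 0.05, beside 0 of 11426 genes (0%), and the groups of none of the 9 were free of overlap, beside 8.54% of all genes tested. At an unadjusted p-value under 0.05 the test passed 402 genes and 0 members, and DESeq2 passed 228 genes unadjusted and 0 adjusted. The median log2 fold change of the 9 members was -0.05, with 3 higher and 6 lower, beside 0.00 over all genes tested. For MET, AXL, PDGFA, PDGFC, PDGFRA, FGFR1 and EGFR the intervals lay between -0.45 and 0.46 on the log2 scale.

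**Figure D2:**
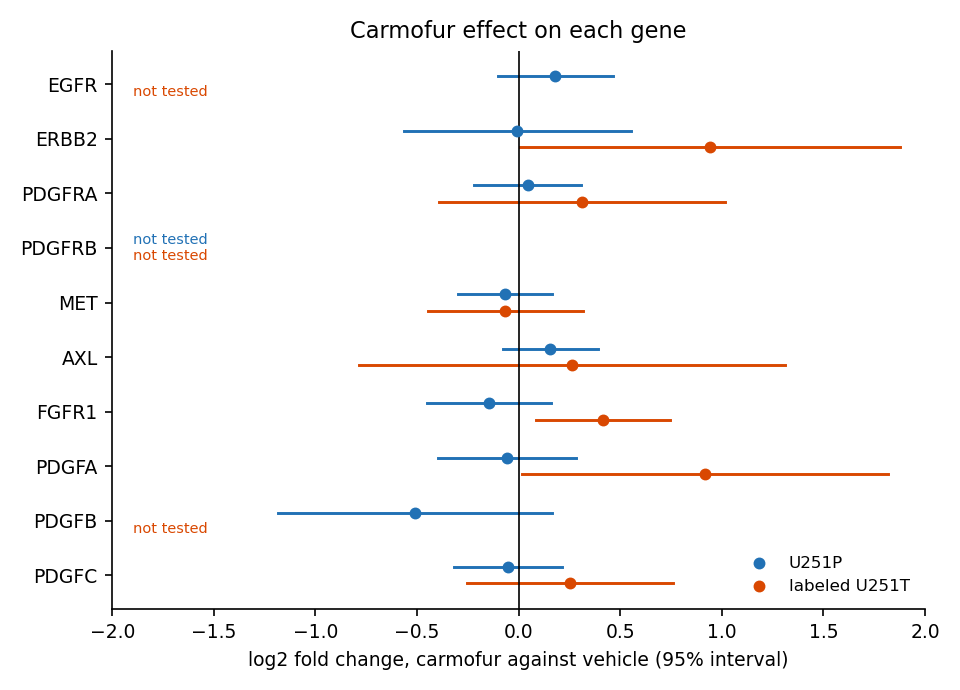
Log2 fold change of carmofur against vehicle for each gene, with its 95% interval, in U251P and in the libraries labeled U251T. All 9 U251P intervals cross 0, and in U251T those of FGFR1, PDGFA and ERBB2 begin just above 0, although none had an edgeR adjusted p-value under 0.05.

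In the libraries labeled U251T the order of the genes was different. FGFR1 led with vehicle at 131, 122 and 161 CPM (138 ± 20.3, SD, n = 3), followed by MET at 89.9, 113 and 101 CPM (101 ± 11.5, SD, n = 3) and PDGFC at 55.4, 76.0 and 38.9 CPM, and none of these ranges overlapped the next. PDGFRA came next at 22.3, 17.7 and 19.4 CPM. ERBB2, AXL and PDGFA were at means of 8.78, 7.56 and 7.03 CPM, with overlapping ranges, and rested on 3 to 31 counts per library. PDGFRB had 8, 16 and 4 counts and EGFR 5, 3 and 3. PDGFB had 1, 3 and 0 counts, where 0 counts allow up to 5.30 CPM in that library.

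FGFR1 had the smallest p-value of the members for carmofur in U251T. With carmofur it was at 189.7, 171 and 185 CPM (182 ± 9.96, SD, n = 3), each above every vehicle library, with a log2 fold change of 0.42 (SE 0.157, interval 0.09 to 0.75) and an edgeR adjusted p-value of 0.0772. Over the alternatives its adjusted p-value ranged from 0.012 to 0.375. It was under the threshold in 1 of 13, the fit with the replicate number as a block. PDGFA was also higher in each carmofur library, at 11.3, 15.8 and 18.2 CPM against 6.92, 8.87 and 5.30, but on 7 to 17 counts against 3 to 25, and its log2 fold change of 0.92 (SE 0.428) had an edgeR adjusted p-value of 0.16.

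ERBB2 had 9, 21 and 9 counts with carmofur in U251T, or 9.28, 19.5 and 23.5 CPM, which overlapped the vehicle range of 6.74 to 10.8 CPM, and its log2 fold change was 0.94 (SE 0.444, edgeR adjusted p-value 0.163). The log2 fold changes were 0.31 for PDGFRA, 0.26 for AXL, 0.25 for PDGFC and -0.06 for MET, with edgeR adjusted p-values from 0.543 to 0.855. Single libraries moved these values. PDGFRA was at 0.056 without carmofur replicate 3 and 0.47 without carmofur replicate 2, and PDGFC at 0.08 when vehicle replicate 3 was left out and 0.57 when vehicle replicate 2 was. AXL ran from -0.016 (vehicle replicate 1 left out) to 0.87 (vehicle replicate 2 left out). EGFR, PDGFRB and PDGFB did not pass the filter on low counts. EGFR had 3, 7 and 5 counts with carmofur and overlapped vehicle in CPM, and its pooled ratio of 2.63 had an exact interval of 1.13 to 6.32 that covers counting error only. PDGFRB had 6, 6 and 1 counts, a pooled ratio of 0.894 (exact interval 0.425 to 1.78), and PDGFB had 1 count in all. With carmofur the order of means was FGFR1, MET, PDGFC, PDGFRA, ERBB2, PDGFA, AXL, EGFR, PDGFRB and PDGFB, and from PDGFRA to PDGFRB each gene overlapped the next.

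By edgeR, 0 of the 7 members tested in U251T had an adjusted p-value under 0.05, beside 1231 of 7204 genes (17.1%), and 3 members (FGFR1, PDGFA and ERBB2) and 2153 genes had an unadjusted p-value under 0.05. DESeq2 also called 0 of the 7, and 935 genes. The groups of 2 of the 7 did not overlap, both higher with carmofur, beside 32.3% of all genes in either direction and 15.8% higher. The median log2 fold change of the 7 members was 0.31, with 6 higher and 1 lower, beside 0.01 over all genes tested. Summed over the 10 genes, the level was 410 to 461 CPM with carmofur and 331 to 363 CPM with vehicle in U251T, without overlap, whereas in U251P it was 612 to 694 and 602 to 729 CPM. Without FGFR1 the sum of the other 9 overlapped in U251T, at 239 to 276 CPM with carmofur and 193 to 241 CPM with vehicle. Other measures moved with carmofur in the same libraries. The other-cell markers summed to 1963 to 1999 CPM against 1327 to 1625 with vehicle, the glioma markers to 7817 to 9883 against 11712 to 14178, and nuclear copies of mitochondrial genes took 2.54% to 3.09% of counts against 1.96% to 2.10%. Of 4 glioma markers tested, edgeR called VIM (log2 fold change -0.67) and GFAP (-0.96) lower and CD44 (0.39) higher, and VIM made up most of the sum. The part of these measures in the result was not tested.

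Whether carmofur acted differently on these genes in the 2 sets of libraries was tested by the difference of its effects. By edgeR over all 12 libraries, 0 of 10 members passed an adjusted p-value under 0.05, beside 4.28% of 13070 genes, and 1 member (FGFR1) and 1978 genes passed unadjusted. For FGFR1 the effect in U251T minus that in U251P was 0.50 (SE 0.228, interval 0.04 to 0.97), with an edgeR adjusted p-value of 0.267. DESeq2 gave 0.59 with an adjusted p-value of 0.0446, so this call depended on the tool. The median difference over all genes tested was 0.17 with DESeq2 and -0.02 by edgeR, so the 2 FGFR1 estimates stand on different scales. For MET and AXL the differences were -0.07 (interval -0.56 to 0.42) and -0.05 (interval -0.95 to 0.85), and for PDGFA and ERBB2 0.84 and 0.87, with intervals that included 0.

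Set against U251P in vehicle, the libraries labeled U251T had far less EGFR, AXL, PDGFA and PDGFB, less PDGFRA and MET, and more FGFR1 and PDGFRB. EGFR had 363, 242 and 340 counts in U251P and 5, 3 and 3 in U251T, a log2 fold change of -4.85 (SE 0.328). AXL had 788, 553 and 748 counts against 6, 31 and 4, a log2 fold change of -4.19 (SE 0.228), and PDGFA 431, 376 and 375 against 9, 25 and 3, -3.53 (SE 0.249). The ranges of these genes in CPM did not overlap between the lines. PDGFB, with 4 counts in all of U251T vehicle against 172 in U251P, was 14.8-fold lower by pooled counts (exact interval 5.67 to 54.9, counting error only).

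PDGFRA was lower by a smaller step, with 297, 176 and 273 counts in U251P and 29, 50 and 11 in U251T, a log2 fold change of -1.51 (SE 0.213). PDGFRB, the other PDGF receptor, was on the opposite side, with 28 counts in all of U251T vehicle against 3 in U251P, a pooled ratio of 27.1 (exact interval 8.38 to 140, counting error only). FGFR1 had 186, 142 and 184 counts in the deeper U251P libraries and 170, 344 and 91 in U251T, a log2 fold change of 1.78 (SE 0.158). MET differed least among the genes called, at -0.68 (SE 0.15). ERBB2 (-0.23, interval -0.96 to 0.50) and PDGFC (-0.09, interval -0.49 to 0.31) overlapped between the lines, and for PDGFC the call depended on single libraries and on the filter: without U251T vehicle replicate 2 the log2 fold change was -0.53 (edgeR adjusted p-value 0.02) and without U251T vehicle replicate 3 it was 0.03.

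By edgeR, 8 of the 10 members had an adjusted p-value under 0.05, beside 10474 of 12047 genes (86.9%), so the members were called no more often than genes at large. The same 8 had groups that did not overlap, beside 86.8% of all genes. Of the members called, 2 were higher and 6 lower, beside 39.3% and 47.6% of all genes. Of the 14 constitutive genes, 12 were called, 3 higher and 9 lower, with log2 fold changes from -9.60 (B2M) to 5.92 (LDHA), a span that contains every member. The median log2 fold change was -0.33 over all genes, -1.57 over the constitutive genes and -1.10 over the 10 members. Relative to that median over all genes, MET was at -0.35, but at 0.15 when mitochondrial genome genes and pseudogenes were left out and at 0.50 with no filter, so its side of the median changed with the set of genes tested, while its own log2 fold change stayed below 0 under each alternative, from -1.32 to -0.63. EGFR, AXL, PDGFA, PDGFB and PDGFRA stayed below the median and FGFR1 and PDGFRB above it under each scaling, filter and fit in which they were tested. PDGFC also changed side, from -0.73 to 1.10 relative to the median. Differences between the labels cannot be told apart from whatever set these libraries apart.

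**Figure D3:**
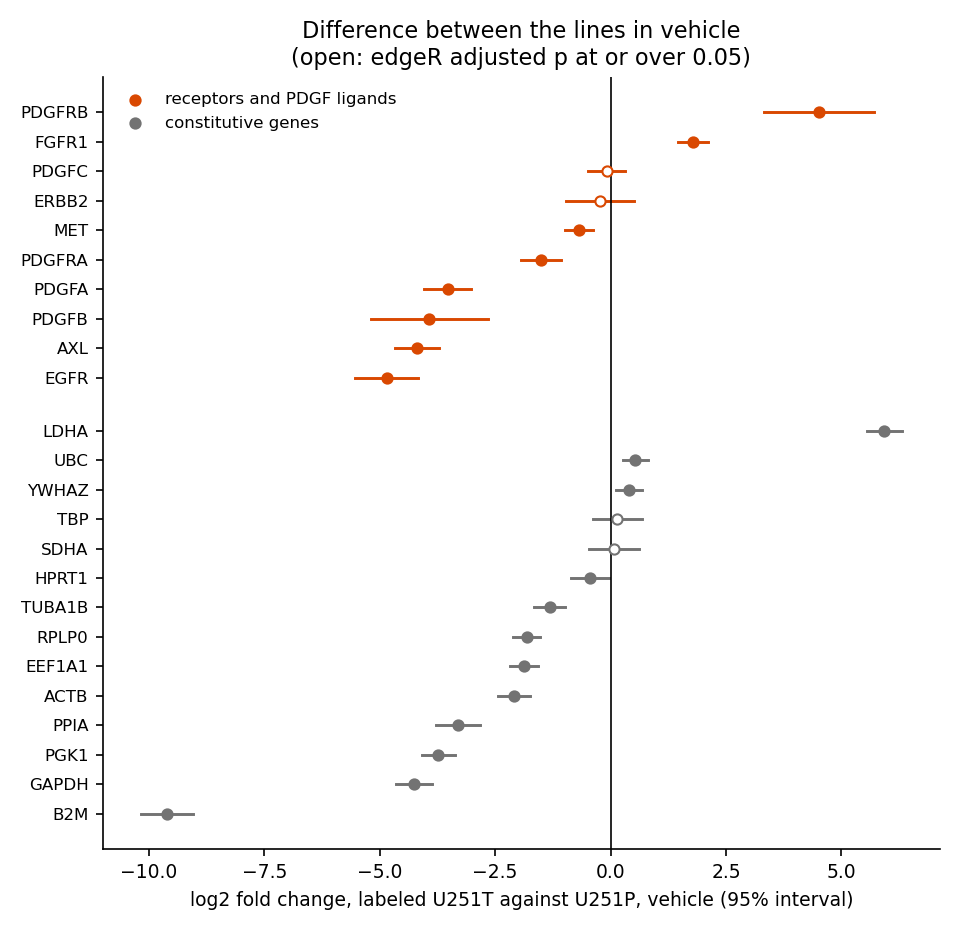
Log2 fold change of the libraries labeled U251T against U251P in vehicle, with 95% intervals, for the 10 receptor and ligand genes and for 14 constitutive genes, with filled points for an edgeR adjusted p-value under 0.05. The members reach from -4.85 (EGFR) to 4.51 (PDGFRB), inside the span of the constitutive genes from -9.60 (B2M) to 5.92 (LDHA).

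The shares of the members within their own summed counts do not depend on the scaling between libraries. FGFR1 took 4.83% to 6.07% of the 10 genes' counts in the 6 U251P libraries and 33.6% to 45.5% in the 6 labeled U251T. AXL took 23.0% to 27.7% in U251P and 1.39% to 3.03% in U251T, and EGFR 10.1% to 13.1% and 0.293% to 2.82%. MET took 24.4% to 24.8% with vehicle and 21.8% to 24.4% with carmofur in U251P, and 27.1% to 31.1% with vehicle and 20.9% to 23.6% with carmofur in U251T, so its vehicle share was higher in U251T without overlap. PDGFC took 8.45% to 11.2% in U251P and 11.0% to 20.9% in U251T, PDGFA 11.8% to 15.7% and 1.50% to 3.95%, and PDGFRA 7.22% to 10.0% and 4.75% to 8.47%. Carmofur and vehicle libraries of one label had the same leading genes, MET and AXL in U251P and FGFR1 and MET in U251T.

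**Figure D4:**
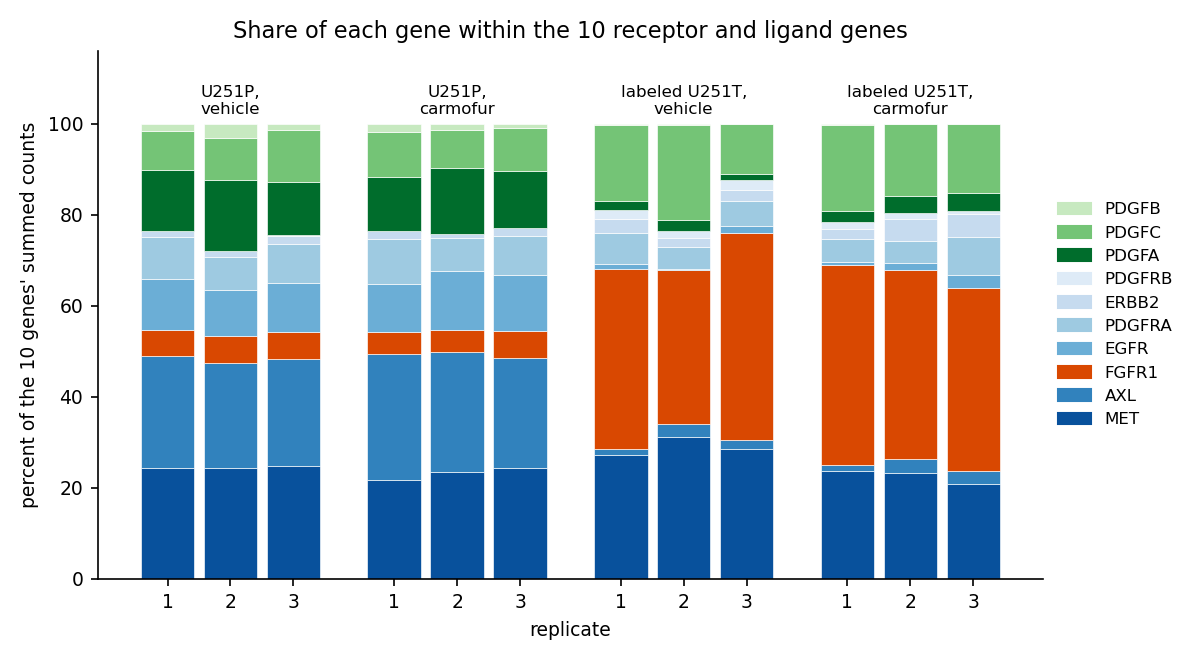
Share of each gene in the summed counts of the 10 genes (percent), stacked for each of the 12 libraries. FGFR1 takes 4.83% to 6.07% in U251P and 33.6% to 45.5% in the libraries labeled U251T, where the bands of AXL and EGFR are narrower and that of MET covers 20.9% to 31.1%.

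Other receptors and ligands of the same families showed which partners were present. In U251P, the 9 relatives and ligands of the ERBB receptors included TGFA, a ligand of EGFR, at 329 to 548 counts per library, HBEGF, another EGFR ligand, at 97 to 378, and NRG1, a ligand of ERBB3 and ERBB4, at 661 to 901. ERBB3 and ERBB4 themselves had only 0 to 5 and 1 to 7 counts per U251P library, and 0 to 4 and 0 to 2 in U251T. FGF2, the gene for basic FGF, was at 371 to 606 counts in U251P and at 0 or 1 in each U251T library. GAS6, the ligand of AXL, was at 15 to 27 counts in U251P and 2 to 9 in U251T. HGF, the ligand of MET, was at 0 in all 12 libraries, a gene singled out after its values were seen. TGFA had 0 to 4 counts in the libraries labeled U251T.

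In U251P, carmofur called 0 of the genes in each of these lists, beside 0% of all genes. The smallest p-values belonged to HBEGF (log2 fold change 0.46, SE 0.178) and NRG1 (-0.26, SE 0.151) among 5 ERBB relatives tested, and to VEGFA (-0.59) and VEGFB (-0.35) among 3 relatives of the PDGF and VEGF families. Among 3 relatives and ligands of MET and AXL they belonged to TYRO3 (-0.56) and GAS6 (0.26), and among 5 of the FGF family to FGF2 (-0.21) and FGFR2 (-0.62). None of these was called by edgeR, each with an adjusted p-value of 0.999.

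The genes that carry or limit the receptor signal were likewise not called in U251P. All 26 adaptors and kinases of the relay were tested, their log2 fold changes ran from -0.40 to 0.27 with a median of -0.04, and the smallest p-values were those of AKT1 (0.27) and MAPK3 (-0.40), the gene for ERK1. Of the 24 negative regulators, SOCS3 (0.45) and DUSP6 (-0.28), a phosphatase for ERK, had the smallest p-values, and the median was 0.01. Of 11 genes that growth factors induce, CCND1 was at 0.16, with a median of 0.09 over the list. Adjusted p-values from edgeR were 0.999 for these 5 genes.

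In the libraries labeled U251T, edgeR called 10 of the 55 genes tested in the 7 lists around the members, beside 1231 of 7204 genes (17.1%). Genes of these lists were thus called about as often as genes at large. NRG1 rose from 83.0, 77.7 and 90.1 CPM to 243, 160.4 and 232 CPM, a log2 fold change of 1.33 (SE 0.179, edgeR adjusted p-value 4.65e-05), and was 1 of 2 ERBB relatives tested. In the relay 2 of 21 genes rose, GAB1, a docking protein of MET and EGFR, by 2.75 (SE 0.444) and PIK3R1, the regulatory subunit of PI3-kinase, by 0.87 (SE 0.198), with edgeR adjusted p-values of 0.000281 and 0.00484. GAB1 rested on 3 to 7 counts with vehicle and 7 to 31 with carmofur, and its groups did not overlap in CPM. None of the 5 PDGF and VEGF relatives, of the FGF family (FGFR3 tested, log2 fold change 1.13) or of the MET and AXL relatives (TYRO3 tested, 0.39) was called.

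Of 15 genes tested in U251T from the list of negative regulators, edgeR called 3 higher and 1 lower, beside 17.1% of all genes called. DUSP6 (0.75, SE 0.164) and USP8, a deubiquitinase that acts on endocytosed receptors (0.52), were among those higher with carmofur, and ERRFI1, an inhibitor of EGFR, was lower at -0.95 (SE 0.209). Their edgeR adjusted p-values were 0.00347, 0.0132 and 0.00372. The list was set by name, and which way USP8 acts on the receptors in these cells was not tested. Of 10 induced genes, 3 were called higher and 0 lower. These were CCN2 at 1.20, EGR1 at 0.91 and CCN1 at 0.51, with edgeR adjusted p-values of 0.000139, 0.0172 and 0.0267. Of the 10 estimates, 6 were above 0 and 4 below it, down to -0.67. In CPM, 2 genes lay wholly above vehicle and 1, MYC, wholly below it, at 29.7 to 39.2 against 54.7 to 57.7. The list medians were 0.01 for the relay, 0.08 for the negative regulators and 0.43 for the induced genes, beside 0.01 over all genes tested, and the rise of the other-cell markers given above accompanied these changes.

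**Figure D5:**
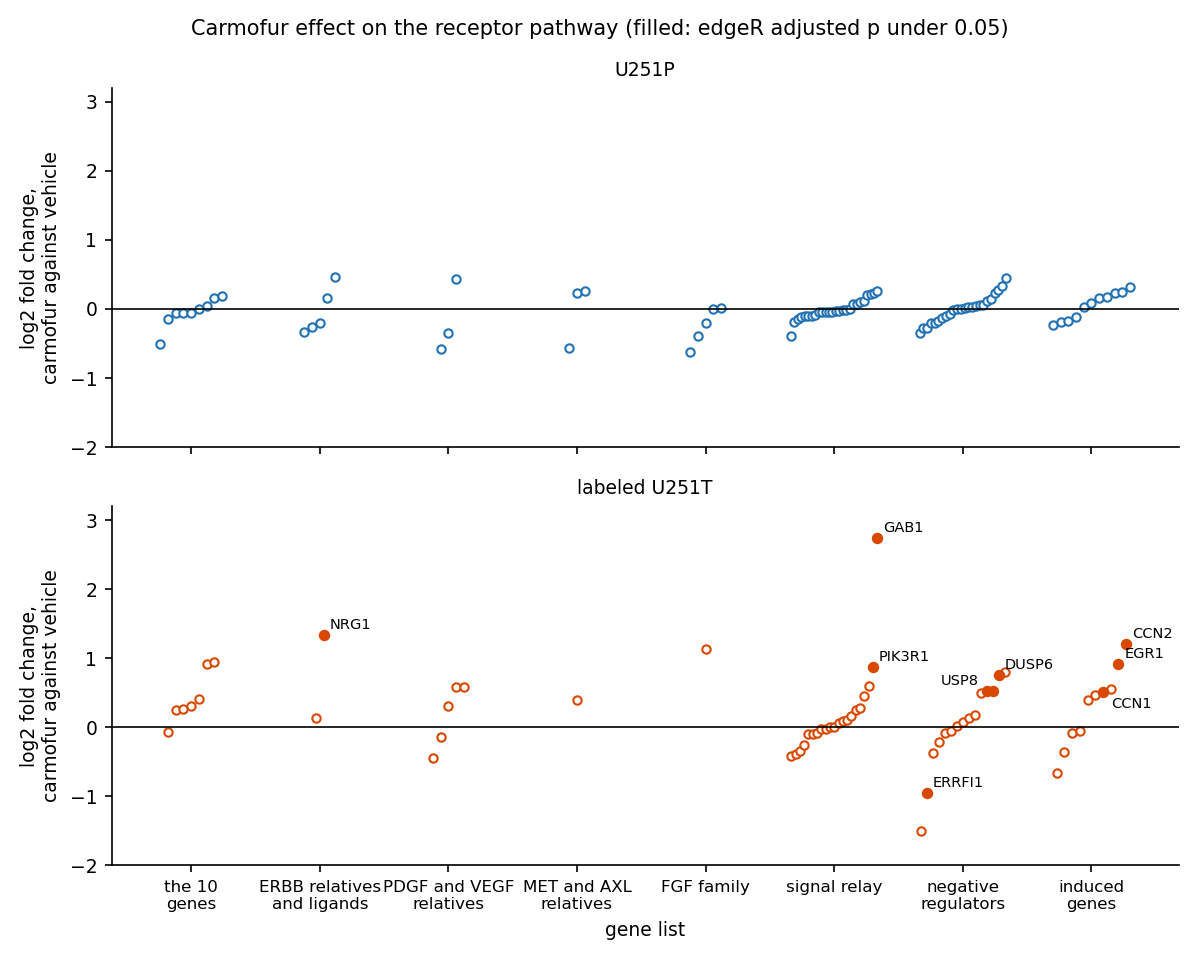
Log2 fold change of carmofur against vehicle for the genes tested in the 10-gene set and in 7 lists around it, in U251P (top) and in the libraries labeled U251T (bottom), with a point per gene, filled for an edgeR adjusted p-value under 0.05. No point is filled in U251P, where all lie between -0.62 and 0.46, and in U251T the filled points include NRG1, GAB1, PIK3R1, DUSP6, USP8, ERRFI1, CCN2, EGR1 and CCN1.

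In vehicle, genes of the same lists differed between the lines as follows, beside 86.9% of all genes tested. Called were 4 of 4 ERBB relatives tested, all lower in U251T and led by TGFA (-6.43), NRG1 (-1.08) and HBEGF (-1.52), and 4 of 5 PDGF and VEGF relatives, all higher and led by FLT1 (5.36), VEGFC (3.82) and VEGFB (1.22). FLT1, a receptor for VEGF, had 17 to 63 counts per U251T vehicle library and 0 to 6 in U251P. Of the MET and AXL relatives, 1 of 2 was called, TYRO3 at 2.12, and of the FGF family 3 of 3, FGF2, FGFRL1 (-3.95) and FGFR3 (-1.87), all lower. In the relay 24 of 26 were called, 13 higher (among them FRS2 at 1.93) and 11 lower (MAP2K2, AKT2 and NRAS at -5.81, -2.25 and -3.80). Among the negative regulators 9 were higher, among them SPRY2 (3.91) and RASA1 (2.96), and 13 lower, led by STUB1 (-5.56), PTPN1 (-3.95) and HGS (-4.77), of 24. Of 11 induced genes, 5 were higher, among them CCN1 (1.70), EGR1 (2.56) and MYC (1.61), and 5 lower, among them CCND1 (-4.50) and IER3 (-3.78). The values in this paragraph are log2 fold changes from edgeR, and genes are named in the order of their p-values.

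Across the 6 U251P libraries, the gene of all the lists whose log2 CPM was most like that of a member differed from member to member. As a description over 6 libraries and 105 genes, FGFR1 was closest to SOS2 (Pearson r = 0.96), MET to USP8 (0.96), PDGFRA to FOSL1 (0.95), PDGFA to MET (0.93), AXL to CD44 (0.91), EGFR to EGF (0.88) and PDGFC to LDHA (0.80). The points share library and depth, and each r is the highest of many.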

How the data were processed

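The authors deposited whole-number read counts per Ensembl gene for 12 libraries (QuantSeq 3′ FWD kit, single-end reads), trimmed and mapped with Lexogen's BlueBee pipeline. The build named by the submitters' processing notes is hg38. The counting tool, the use of strand and the treatment of PCR copies are not given in the sources used here. No batch, date or lane is given by the labels.

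Each of the 60107 identifiers was kept. Symbols came from a list of gene names by Ensembl identifier, with the GENCODE release 29 name where that list held none. Positions came from GENCODE release 29. Levels are counts per 1000000 counts of the library (CPM). Fold changes came from edgeR 4.0.16 under R 4.3.3 (TMM normalization, its filterByExpr filter and the quasi-likelihood test), with Benjamini-Hochberg adjustment at 0.05 over all genes tested. The lines were fitted separately for carmofur, the 6 vehicle libraries for the lines, and all 12 for the difference of effects. With 3 libraries against 3, an exact permutation test cannot go under 0.1, so p-values come from fits across all genes. Exact conditional binomial intervals (95%) and the limit of 3 counts for a 0 cover counting error only.

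The members and the lists were chosen with earlier results of these data known. Named were all members and, of each list, at most 3 genes per direction with the smallest p-values among those called, or with none called the 2 smallest, and some of these genes are not reported here. Likeness was taken for members at a mean of 20 CPM or more. Replicates differed by more than sampling noise, with chi-square values of 1.65 to 10.6 per degree of freedom. Alternatives were DESeq2 1.42.0, upper-quartile normalization, no filter, at least 10 counts in every library, mitochondrial genome genes and pseudogenes left out, the replicate number as a block, 1 fit of all 12 libraries, and leaving out each library. The fit was tested on simulated data. Python 3.11.15, pandas 2.3.3 and matplotlib 3.10.9 made the tables and plots.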

Additional observations from a re-analysis of the deposited data

Results flagged for a closer look

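For 6 of 76 genes tested in the 7 pathway lists, none of them among the 10 receptor and ligand genes, the effect of carmofur differed between the lines when the difference itself was tested over all 12 libraries by edgeR, beside 560 of 13070 genes (4.28%) at large. Among the constitutive genes, TUBA1B also passed, at -1.12 (edgeR adjusted p-value 0.00773). On the log2 scale, the effect in U251T minus that in U251P was 1.51 for NRG1 (edgeR adjusted p-value 0.000136), 1.07 for CCN2 (0.0127), 0.96 for DUSP6 (0.0147), 2.49 for GAB1 (0.0182), 0.90 for PIK3R1 (0.0314) and -2.02 for SOCS3 (0.037). SOCS3, a feedback inhibitor of cytokine receptors, had 2, 8 and 0 counts with carmofur in U251T against 15, 31 and 7 with vehicle, and 195, 171 and 92 against 140, 49 and 93 in U251P. By edgeR it was called for carmofur in neither line on its own. NRG1 had 236, 173 and 89 counts against 108, 219 and 51 in the shallower U251T libraries, and 732, 852 and 661 against 686, 671 and 901 in U251P.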

How the results depend on the processing

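No member was called for carmofur in U251P under any alternative. EGFR, ERBB2, PDGFRB, PDGFA, PDGFB and AXL had at most 31 counts each in a library labeled U251T. Of the alternatives' log2 fold changes of members, 107 of 117 for carmofur in U251P, 84 of 88 in U251T, 120 of 124 between the lines and 160 of 174 for the difference of effects kept their direction and side of the threshold. The cause of the exceptions was not tested unless named. Over all genes, carmofur in U251P called 19 genes with no filter and 0 to 1 when a library was left out, and the difference of effects called 367 (without U251T carmofur replicate 1) to 721 genes (without U251T vehicle replicate 3). With at least 10 counts in every library, the lines differed in 3737 genes and 4 members, since 4 members could then be tested. DESeq2 called 1 member, FGFR1, for the difference of effects. With no filter, PDGFC differed between the lines by -0.45 (edgeR adjusted p-value 0.0313), and with at least 10 counts by -0.72 (0.0041), where MET was at -1.32 and FGFR1 at 1.15. The median over all genes tested was -1.54 with no filter and 0.01 with at least 10 counts. PDGFC thus lay above the median in the first of these fits and below it in the second.

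Same-numbered vehicle and carmofur libraries correlated at 0.22, -0.004 and 0.27 in U251P and at 0.032, 0.16 and 0.045 in U251T, which is not over 0.1 in every pair, so the numbers were not taken to pair the libraries, although in U251T every library correlated best with its own number. With the replicate block, 1 gene was called in U251P, 2078 genes and 1 member (FGFR1, log2 fold change 0.43, edgeR adjusted p-value 0.012) in U251T, and 1156 genes for the difference of effects.

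Estimates near 0 changed sign. For carmofur in U251P, ERBB2 was at 0.0020 with DESeq2 and 0.017 with the replicate block. When a library was left out, ERBB2 ranged from -0.14 to 0.23, PDGFRA from -0.048 to 0.099, PDGFA from -0.23 to 0.12, PDGFC from -0.16 to 0.024 and MET from -0.14 to 0.010. In U251T, MET ranged from -0.17 to 0.070 and AXL from -0.016 to 0.87. Between the lines, PDGFC ranged from -0.53 to 0.033. For the difference of effects, AXL was at 0.043 with DESeq2, 0.031 with upper-quartile normalization and 0.067 with the replicate block, and MET at 0.0039 with DESeq2. Over all genes the median difference was 0.17 with DESeq2, beside -0.02 in the main edgeR fit. When a library was left out, the difference of effects ranged from -0.034 to 0.29 for PDGFRA, -3.93 to 0.16 for PDGFB, -0.0047 to 0.59 for PDGFC, -0.17 to 0.11 for MET and -0.38 to 0.70 for AXL.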
